A study of Mus with 6 samples.

Results

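The mRNAs of the early growth response (EGR) transcription factors Egr1, Egr2 and Egr3 and of their corepressors Nab1 and Nab2 were followed in lens epithelial cells (LECs) immediately and 6 h after lens injury. These 5 genes were taken by name, and all 5 were found among the 55421 genes counted and among the 16810 that passed the low-count filter. The cells were wild type LECs of C57BL/6 mice, still attached to the lens capsule, which were harvested either immediately after surgical fiber cell removal, a mouse model of cataract surgery (0 h post cataract surgery, PCS), or 6 h later (6 h PCS). Each time point had 3 libraries of total, ribosome-depleted RNA, and each library was made from a pool of 5 capsules. No genotype, drug or transgene separated the groups, and the labels give an age of 2 months where the methods give 3 to 5 months and both sexes.

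EGR factors are zinc finger proteins that bind GC-rich sites, and their genes are immediate early genes, which means that they are transcribed within minutes of ERK signaling without new protein synthesis. ERK acts on them largely through ternary complex factors of the ETS family bound with serum response factor (SRF). NAB proteins have no DNA binding domain of their own. They attach to a domain shared by Egr1, Egr2 and Egr3 and repress transcription, in part by recruiting the NuRD chromatin remodeling complex, and NAB2 is itself an EGR-inducible gene, so that it is known as a negative feedback regulator.

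Levels are given as CPM (counts per 1000000 counts on genes), with library sizes scaled by TMM, and, where genes are compared with each other, as FPKM, which is that CPM divided by the exon length in kilobases. Gene counts per library ran from 18039974 to 24701039. As the samples were bulk RNA, a change in the number of cells of one type and a change in RNA per cell cannot be told apart. Of the lens epithelial markers, Pax6, Foxe3, Prox1, Pitx3, Sox2, Mab21l1 and Epha2 were analysed here, and their summed level was 1419 to 1659 CPM at 0 h and 1040 to 1314 CPM at 6 h PCS, with 1 DEG, Epha2, which was upregulated. Prox1, Pitx3, Sox2 and Mab21l1 were lower in every 6 h library than in any 0 h library and passed the FDR limit with changes under 2-fold (log2FC from −0.86 for Pitx3 to −0.53 for Mab21l1). Other cell types were present to varying extents. The 5 erythrocyte genes were all upregulated DEGs, with sums of 7.94 to 19.5 CPM at 0 h and 73.5 to 132.7 CPM at 6 h PCS. Of all tested genes, 4.53% were upregulated DEGs. Of 6 leukocyte genes analysed, 1 (Cd68) was a DEG, and their sums were 13.5 to 22.6 CPM and 16.9 to 32.3 CPM. The sums of 4 endothelial genes, 0 of them DEGs, were 4.10 to 26.3 CPM and 20.0 to 36.9 CPM. Kdr made up most of these sums, and the endothelial genes Pecam1 (0.791 and 3.13 CPM on average, log2FC 1.98, FDR 0.0644) and Cdh5 (0.219 and 2.24 CPM, log2FC 3.33, FDR 0.0529) were higher in every 6 h library. The sums of 3 corneal epithelial genes, also without a DEG, were 347.7 to 495.2 CPM and 318 to 450.8 CPM, mostly from Aldh3a1 (log2FC −0.64, FDR 0.0725). The corneal keratin genes had fold changes of the size of those of the EGR genes and no overlap between the time points. Krt12 was at 7.01, 0.437 and 1.47 CPM at 0 h and 56.1, 65.8 and 44.2 CPM at 6 h PCS (log2FC 4.23, FDR 0.0792), and Krt5 was at 7.70, 0.328 and 2.29 CPM and 31.2, 38.4 and 24.9 CPM (log2FC 3.21, FDR 0.146). Both had the order of Egr2 and Egr3 at 0 h PCS, highest in replicate 1 and lowest in replicate 2, but were lowest in 6 h replicate 3, where the EGR genes were highest. The 4 pigment cell genes varied most at 6 h PCS, with sums from 77.4 to 1965 CPM, against 51.4 to 208.8 CPM at 0 h, and 0 of the 4 were DEGs. The part of these cell types in the results below was not tested unless a value is given.

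The mRNA levels of all 3 EGR factors were higher in every 6 h library than in any 0 h library. Egr1, the prototype of the family and a regulator of growth factor and wound response genes, was by far the most abundant. It lies on chromosome 18 of GRCm38, from 34861207 to 34864956 (ENSMUSG00000038418). Its level was 227.7, 144.1 and 35.4 CPM in replicates 1, 2 and 3 at 0 h PCS and 1265, 1343 and 2337 CPM at 6 h PCS. Egr1 was thus already well expressed at 0 h PCS, but unevenly, with a 6.44-fold range between the 0 h libraries against a 1.85-fold range at 6 h. Even the lowest 6 h library was 5.56-fold above the highest 0 h library. The log2 fold change (log2FC) of Egr1 was 3.60 ± 0.779 (SE), or 12.1-fold, with a 95% interval of 1.60 to 5.60. Its FDR, the Benjamini-Hochberg adjusted p of the quasi-likelihood test in edgeR, was 0.0602, so that Egr1 missed the limit of 0.05.

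Egr2, also known as Krox20 and required for hindbrain patterning and Schwann cell myelination, was the least abundant member. It lies on chromosome 10 from 67534469 to 67542188 (ENSMUSG00000037868). Its counts at 0 h PCS were 127, 24 and 42, with exact 95% Poisson intervals of 105.9 to 151.1, 15.4 to 35.7 and 30.3 to 56.8, which cover counting error only. Replicate 1 therefore exceeded the other two 0 h libraries by more than counting error. The corresponding levels were 5.46, 0.875 and 1.81 CPM at 0 h PCS and 11.1, 19.4 and 31.4 CPM at 6 h PCS. The groups did not overlap, though the lowest 6 h library was only 2.04-fold above the highest 0 h library. The log2FC of Egr2 was 2.93 ± 0.732 (SE), or 7.64-fold, with a 95% interval of 1.16 to 4.70 and an FDR of 0.0651, which left it uncalled. The RefSeq annotation places a long noncoding RNA, Gm32255, over 1712 bases of the Egr2 locus, and the strand setting of the counting is not given in the sources used here.

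Egr3, which acts in muscle spindle development and in lymphocytes, was the EGR gene with the clearest increase. It lies on chromosome 14 from 70077317 to 70082613 (ENSMUSG00000033730). Its level was 8.05, 2.59 and 4.40 CPM at 0 h PCS and 44.2, 59.0 and 93.7 CPM at 6 h PCS. The lowest 6 h library was 5.50-fold above the highest at 0 h, a gap as wide as that of Egr1, while the 0 h libraries spanned a 3.11-fold range. Egr3 was an upregulated differentially expressed gene (DEG), which here means an FDR no higher than 0.05 together with more than a 2-fold change. Its log2FC was 3.72 ± 0.488 (SE), or 13.1-fold, with a 95% interval of 2.55 to 4.88 and an FDR of 0.00684. Its fold change ranked at position 119 of the 16810 tested genes, with Egr1 at 134 and Egr2 at 254. The intervals of the 3 fold changes overlapped widely, so no order of induction among the EGR factors could be resolved.

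**Figure D1:**
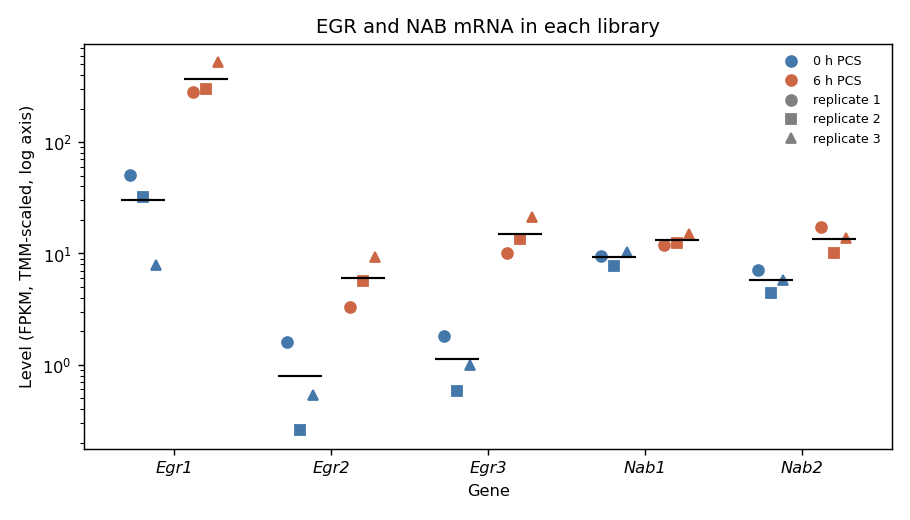
Level of each gene in each library (vertical log axis, FPKM on TMM-scaled library sizes), for 0 h PCS (blue) and 6 h PCS (orange), with a symbol for each replicate and a line at the mean of 3 libraries. Egr1 sits above the other genes at 6 h PCS, from 282.2 to 521.2 FPKM, while Nab1 moves little, from 7.79 to 10.3 FPKM at 0 h and 11.8 to 14.97 FPKM at 6 h.

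The corepressor genes changed less. Nab2, the EGR-inducible corepressor, lies on chromosome 10 from 127660918 to 127666703 (ENSMUSG00000025402). Its level was 20.7, 13.1 and 16.8 CPM at 0 h PCS and 50.5, 29.5 and 40.2 CPM at 6 h PCS. The time points did not overlap, and the lowest 6 h library was 1.42-fold above the highest 0 h library. Nab2 was an upregulated DEG, with a log2FC of 1.25 ± 0.238 (SE), or 2.37-fold, a 95% interval of 0.715 to 1.78 and an FDR of 0.0116. Scaled on library size alone, its log2FC was 0.91 with an FDR of 0.022, which is under the fold limit of 2. The annotated span of Nab2 shares 70 bases with that of its neighbor Stat6. Stat6 itself was at 9.43 ± 0.739 CPM at 0 h and 8.44 ± 0.634 CPM at 6 h PCS (SD, n = 3). Its libraries overlapped between the time points, and its log2FC was −0.16 ± 0.221 (SE) with an FDR of 0.715.

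Nab1, the corepressor that is usually described as constitutive, lies on chromosome 1 from 52455849 to 52500712 (ENSMUSG00000002881). Its level was 39.2, 32.0 and 42.3 CPM at 0 h PCS and 48.5, 51.1 and 61.4 CPM at 6 h PCS. The 6 h libraries all lay above the 0 h libraries, by as little as 1.14-fold. Its log2FC was 0.50 ± 0.161 (SE), or 1.42-fold, with a 95% interval of 0.144 to 0.865, and with an FDR of 0.0896 it was not called. On library sizes alone the groups overlapped, with 35.5 to 48.4 CPM at 0 h and 40.0 to 53.8 CPM at 6 h PCS, and its log2 fold change was 0.19. That scaling lowered the median log2 fold change of all tested genes to −0.32, from near 0 on the TMM scale, so that relative to the median gene the change of Nab1 was similar under both.

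**Figure D2:**
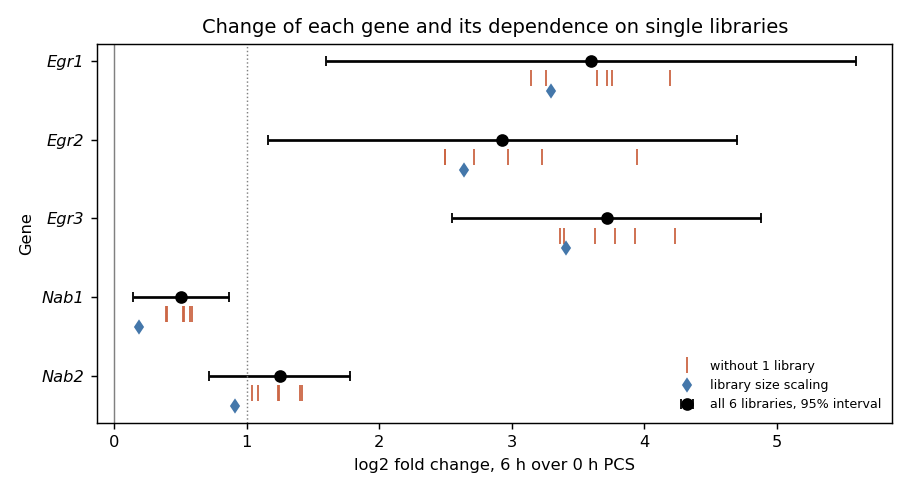
Log2 fold change of each gene at 6 h over 0 h PCS with its 95% interval (black), the estimates with 1 library left out (orange ticks) and the estimate with library size scaling (blue diamonds), with a dotted line at the fold limit. The EGR genes lie between 2.93 and 3.72, Nab2 at 1.25 just above the limit and Nab1 at 0.50 below it.

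In total, 2 of the 5 genes, Egr3 and Nab2, were upregulated DEGs, where 4.53% of the 16810 tested genes were upregulated DEGs. All 5 had 6 h libraries entirely above the 0 h libraries, as did 15.3% of tested genes. The smallest two-sided p that an exact permutation test of 1 gene allows with 3 libraries against 3 is 0.10, and the p-values given here rest on the model fitted across all genes. The paper lists Egr1, Egr2 and Egr3 as differentially expressed at 6 h PCS, so the missed limit of Egr1 and Egr2 here is not its result. The calls of Egr1 and Egr2 depended on how the variance of a gene was estimated. With edgeR's exact test, 4 of the 5 genes were upregulated DEGs, against 5.94% of tested genes, with FDRs of 9.26e-05 for Egr1 and 0.00215 for Egr2. DESeq2 also called 4 of the 5, against 6.4% of tested genes, with FDRs of 3.06e-06 and 5.01e-06. Without robust estimation in the quasi-likelihood fit the same genes made up 4 calls, against 4.66% of tested genes, with FDRs of 0.00792 and 0.0236. The quasi-likelihood method of edgeR 4 called Egr2 (FDR 0.0349) but not Egr1 (FDR 0.0636), for a total of 3 calls where 5.16% of tested genes were upregulated DEGs. Library size scaling left 1 call, Egr3, where 3.4% of tested genes were upregulated DEGs. Nab1 was not a DEG under any of these 5 settings.

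**Figure D3:**
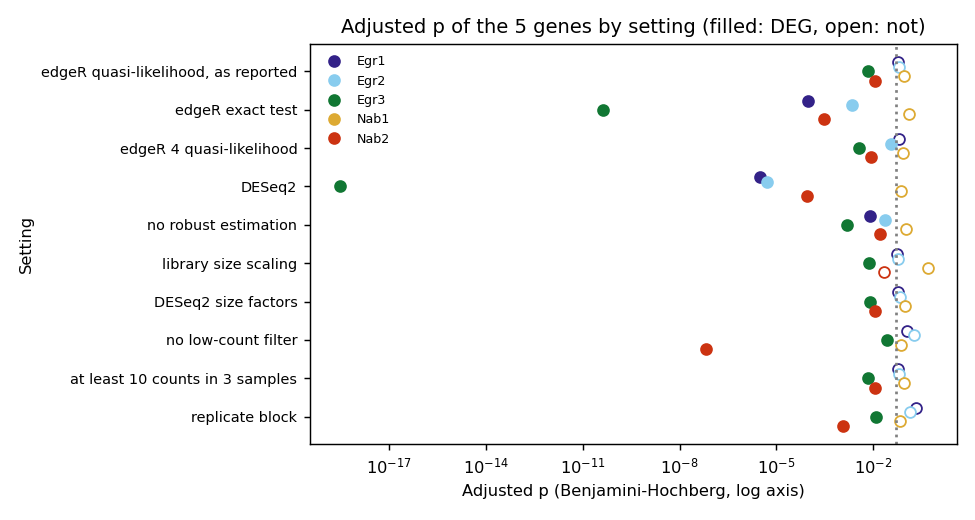
Adjusted p of the 5 genes (horizontal log axis) under each setting of the test, normalization and filter, with filled points for DEGs, open points for genes not called and a dotted line at the FDR limit of 0.05. The top row, marked "as reported", is the fit of this report and not that of the paper. Egr3 is filled in every setting and Nab1 in none, while Egr1 and Egr2 move across the limit, Egr1 between 3.06e-06 with DESeq2 and 0.221 with a replicate block.

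In the quasi-likelihood fit the robust step gave 5.00 degrees of freedom to Egr1, 6.31 to Egr2 and 6.69 to Egr3, which was called, against 9.89 to Nab1, which was not, and to Nab2, which was. A single library decided either call. Without 0 h replicate 3, the 0 h library with the least Egr1, the log2 fold change of Egr1 was 3.14 and its FDR was 0.00214. Without 0 h replicate 1, the library with the most Egr2, Egr2 had a log2 fold change of 3.94 and an FDR of 0.00813. Leaving out any other library did not make either gene a DEG. Egr3 and Nab2 stayed DEGs whichever of the 6 libraries was omitted, with log2 fold changes of 3.37 to 4.23 and 1.04 to 1.42.

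The balance of activators and corepressors was read inside each library as the summed FPKM of Egr1, Egr2 and Egr3 over that of Nab1 and Nab2, a ratio that does not depend on how libraries are scaled. At 0 h PCS it was 3.26, 2.69 and 0.587 in replicates 1, 2 and 3. At 6 h PCS it was 10.2, 14.2 and 19.3. EGR mRNA thus exceeded NAB mRNA in 2 of the 3 libraries at 0 h and in all 3 at 6 h PCS, and the time points did not overlap. Over geometric means the ratio was 8.14-fold higher at 6 h PCS, or 4.74-fold without 0 h replicate 3. The EGR sum went from 32.2 ± 22.4 to 388.6 ± 142 FPKM and the NAB sum from 14.97 ± 2.38 to 26.7 ± 3.64 FPKM (SD, n = 3). No test was made on these sums because the genes were chosen with results of these data known. Since mRNA was measured, the ratio says nothing of the amounts of the proteins.

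The shift was also present for single pairs. Egr1 over Nab2 was 7.20, 7.23 and 1.38 at 0 h PCS and 16.4, 29.9 and 38.2 at 6 h PCS, a 6.39-fold difference of geometric means, or 3.68-fold without 0 h replicate 3, a setting added after the data were seen. The less abundant factors shifted against the corepressors as well. Egr2 and Egr3 together were 0.207, 0.0690 and 0.0955 of the NAB sum at 0 h PCS and 0.460, 0.849 and 1.07 of it at 6 h PCS. In only 1 of the 6 libraries, 6 h replicate 3, did the sum of Egr2 and Egr3 reach that of the corepressors.

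**Figure D4:**
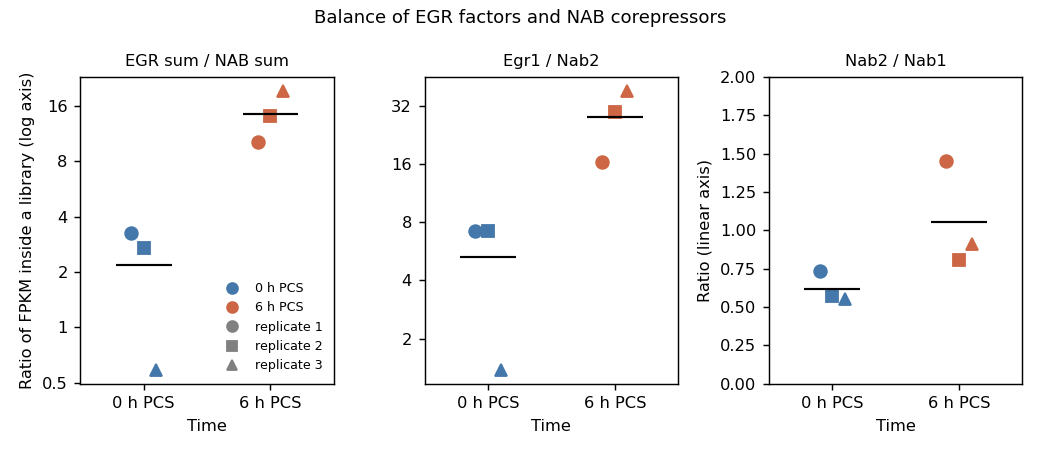
Ratios of FPKM inside each library at 0 h PCS (blue) and 6 h PCS (orange), with a symbol for each replicate and a line at the mean: the EGR sum over the NAB sum and Egr1 over Nab2 on log axes, and Nab2 over Nab1 on a linear axis. In all 3 panels the 6 h libraries lie above the 0 h libraries, and 0 h replicate 3 stands lowest, at 0.587 for the EGR to NAB ratio.

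Within the corepressor pair the weight moved from Nab1 towards Nab2. Nab2 over Nab1 was 0.738, 0.571 and 0.554 at 0 h PCS and 1.45, 0.804 and 0.912 at 6 h PCS. Nab2 made up 38.2% ± 3.74 of the NAB sum at 0 h and 50.5% ± 7.71 at 6 h PCS (SD, n = 3), without overlap of the libraries. Nab2 exceeded Nab1 in 6 h replicate 1 only, which was also the 6 h library with the lowest EGR to NAB ratio.

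Within the EGR group, Egr1 supplied 83.7% to 97.4% of the summed FPKM at 0 h and 94.0% to 95.5% at 6 h PCS, ranges that overlapped. Egr3 supplied 1.78% to 10.6% and 3.40% to 4.20%, and Egr2 0.780% to 5.66% and 1.11% to 1.79%. The 6 h libraries were therefore much alike in EGR composition, whereas the 0 h libraries were not, and the low Egr1 share belonged to 0 h replicate 3. Egr3 over Egr2 was 1.14, 2.28 and 1.87 at 0 h PCS and 3.06, 2.34 and 2.30 at 6 h PCS, so that the nearest libraries of the time points almost touched.

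In order of level per length at 0 h PCS, Egr1 (30.3 ± 21.5 FPKM) was followed by Nab1 (9.23 ± 1.30), Nab2 (5.74 ± 1.30), Egr3 (1.14 ± 0.631) and Egr2 (0.800 ± 0.714 FPKM, SD, n = 3). Egr1 and Nab1 were not resolved, since Egr1 was below Nab1 in replicate 3, and the ranges of Egr3 and Egr2 overlapped. At 6 h PCS, Egr1 (367.6 ± 133 FPKM) was followed by Egr3 (14.9 ± 5.77), Nab2 (13.6 ± 3.57), Nab1 (13.1 ± 1.66) and Egr2 (6.08 ± 2.99 FPKM, SD, n = 3). Egr3, which was below both corepressors in every 0 h library, overlapped with both at 6 h PCS, and Egr2 remained below both in each library.

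The EGR genes shared the order of the 6 h libraries, with replicate 3 highest and replicate 1 lowest for all 3. At 0 h PCS, replicate 1 was highest for all 3, while Egr1 was lowest in replicate 3 and Egr2 and Egr3 were lowest in replicate 2. Of 20 other immediate early factors, among them Fos, Jun, Atf3 and Ier2, 19 were likewise highest in 0 h replicate 1 and 17 in 6 h replicate 3. The lowest 0 h library was replicate 3 for 11 of the 20 and replicate 2 for 9. At 6 h PCS the lowest library was replicate 2 for 13 of the 20 and replicate 1, as for the EGR genes, for 7. The 6.44-fold range of Egr1 between 0 h libraries was exceeded by 1 of the 20, Fosb, and it was larger than that of 96.7% of the 14740 tested genes with a mean of at least 1 CPM, whose median range was 1.37-fold. Nab1 and Nab2 had ranges of 1.32-fold and 1.59-fold at 0 h PCS.

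Of these factors, 16 of 20 were upregulated DEGs, where 4.53% of tested genes were, and 0 were downregulated. All 20 had 6 h libraries above the 0 h libraries, as did 15.3% of tested genes, and their median log2FC was 3.20. With edgeR's exact test 20 were upregulated DEGs (5.94% of tested genes), and with library size scaling 15 (3.4%). The largest changes were in the AP-1 gene Fosb (log2FC 7.03, FDR 0.0143), the Krüppel-like factor gene Klf2 (log2FC 4.94, FDR 0.00144), the orphan nuclear receptor gene Nr4a1 (log2FC 3.92, FDR 0.0131) and Zfp36, which encodes an mRNA-destabilizing protein (log2FC 3.87, FDR 0.00697). The 4 that were not called, as Egr1 and Egr2 were not, were Fos (log2FC 3.72, FDR 0.0599), Atf3 (log2FC 3.35, FDR 0.0616), Nr4a3 (log2FC 2.58, FDR 0.0867) and Myc (log2FC 2.20, FDR 0.0834). Fos, the partner of Jun in AP-1, had 202.2, 66.6 and 37.7 CPM in 0 h replicates 1, 2 and 3, the same order of libraries as Egr1, and 1442, 787.8 and 1801 CPM in the 6 h replicates. Like most of the 20, it was lowest in 6 h replicate 2, unlike Egr1. These names also came from tables that lean towards changed genes.

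The pigment cell genes were highest in the same libraries, with sums of 208.8, 63.8 and 51.4 CPM in 0 h replicates 1, 2 and 3 and of 77.4, 455.7 and 1965 CPM in 6 h replicates 1, 2 and 3. In 6 h replicate 1, where that sum was within the range of the 0 h libraries, Egr1 was at 1265 CPM, Egr2 at 11.1 CPM, Egr3 at 44.2 CPM, Nab1 at 48.5 CPM and Nab2 at 50.5 CPM, each above the highest 0 h library. That library had the lowest share of its reads on genes, 33.6% against 39.5% to 41.25% in the other 5, and the lowest TMM factor, 0.827. Without it the log2 fold changes were 3.76 for Egr1, 3.23 for Egr2, 3.93 for Egr3, 0.57 for Nab1 and 1.04 for Nab2, with Egr3 and Nab2 called. Without 6 h replicate 3, which had the most pigment cell mRNA, the log2 fold changes were 3.26 for Egr1, 2.50 for Egr2, 3.37 for Egr3, 0.40 for Nab1 and 1.24 for Nab2, and Egr3 and Nab2 were still the DEGs. The erythrocyte sum had the order of Egr1 at 0 h PCS, with 19.5, 9.40 and 7.94 CPM in replicates 1, 2 and 3, and another order at 6 h, with 73.5, 132.7 and 79.1 CPM. The leukocyte sum had the order of Egr1 at both time points, with 22.6, 20.9 and 13.5 CPM at 0 h and 16.9, 24.7 and 32.3 CPM at 6 h PCS, and its ranges overlapped between the time points. The part of these cells in the spread of the EGR genes was not tested.

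Upstream of the EGR genes, 13 genes that link ERK to SRF and ETS factors were listed, of which 5 had a name in the tables used and were tested. Srf, the partner of the ternary complex factors, was at 20.1, 13.7 and 14.5 CPM in the 0 h libraries and at 67.3, 78.9 and 100.1 CPM in the 6 h libraries, and was an upregulated DEG (log2FC 2.35 ± 0.207 SE, FDR 0.000267). Rps6ka3, which encodes the ERK-activated kinase RSK2, was also an upregulated DEG, with 35.1, 27.3 and 33.8 CPM at 0 h and 106.8, 81.7 and 114.9 CPM at 6 h PCS (log2FC 1.66 ± 0.173 SE, FDR 0.000531). The ternary complex factor genes Elk4 (log2FC 0.44, FDR 0.107) and Elk3 (log2FC 0.09, FDR 0.889) and the kinase gene Rps6ka1 (log2FC −0.09, FDR 0.857) were not called. Srf was highest in 6 h replicate 3, as the EGR genes were. The median log2FC of the 5 genes was 0.44.

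The corepressor machinery could be read only in small part. Of 13 NuRD subunit genes, Mbd2, which encodes a methyl-CpG binding subunit, was the one with a name at hand. Mbd2 was at 76.6 ± 9.57 CPM at 0 h and 111 ± 7.51 CPM at 6 h PCS (SD, n = 3) and was not a DEG because its change was under 2-fold (log2FC 0.53 ± 0.140 SE, FDR 0.0452). Egr4, Wt1 and the SP factors, which bind related GC-rich sites, and the coactivator genes Ep300 and Crebbp were not analysed here. Klf9, also a GC-box binding factor, was an upregulated DEG, with means of 28.6 ± 10.5 and 67.2 ± 19.1 CPM (SD, n = 3) at 0 h and 6 h PCS (log2FC 1.23 ± 0.293 SE, FDR 0.0374).

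Downstream, 25 genes that are described as EGR targets in other cells were listed, of which 22 were tested. Of the 22, 11 were upregulated DEGs, where 4.53% of all tested genes were, 0 were downregulated and 11 were not called. Their median log2 fold change was 1.78, while the median of all tested genes was near 0. The names at hand lean towards changed genes, and many of these genes also answer to other early factors, so the count says nothing of EGR activity. Tnf, Arc and F3 were among the largest increases. Tnf, a proinflammatory cytokine gene, had no count in any 0 h library and 30, 13 and 32 counts at 6 h PCS. Set against a floor of 3 counts in each 0 h library, it was at least 12.3-fold higher, with an FDR of 0.0139. Arc, an activity-regulated gene, was at 24.5, 13.6 and 8.55 CPM at 0 h and 532.9, 641.2 and 696.4 CPM at 6 h PCS (log2FC 5.32 ± 0.413 SE, FDR 0.000533). It shared with Egr1 the order of libraries at both time points.

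F3, which encodes tissue factor, the initiator of coagulation, was at 5.25, 2.84 and 5.35 CPM at 0 h and 59.3, 155.6 and 147.9 CPM at 6 h PCS (log2FC 4.76 ± 0.476 SE, FDR 0.00242). Unlike Egr1, F3 was not highest in 0 h replicate 1. Other called targets were the matrix glycoprotein gene Thbs1, the adhesion molecule gene Icam1, the stress response genes Gadd45a and Gadd45b, the growth factor gene Pdgfa and the sphingosine kinase gene Sphk1, with log2FC values from 1.24 for Pdgfa to 3.54 for Thbs1. These 6 genes were all highest in 6 h replicate 3, as the EGR genes were. Cd44, a hyaluronan receptor gene, passed on FDR (0.0224) with a change under 2-fold (log2FC 0.91).

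Among the targets not called, Cxcl1, a neutrophil chemokine gene, went from 4.63 ± 3.93 CPM at 0 h to 43.7 ± 30.3 CPM at 6 h PCS (SD, n = 3) without overlap of the libraries (log2FC 3.24 ± 0.891 SE, FDR 0.106).

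**Figure D5:**
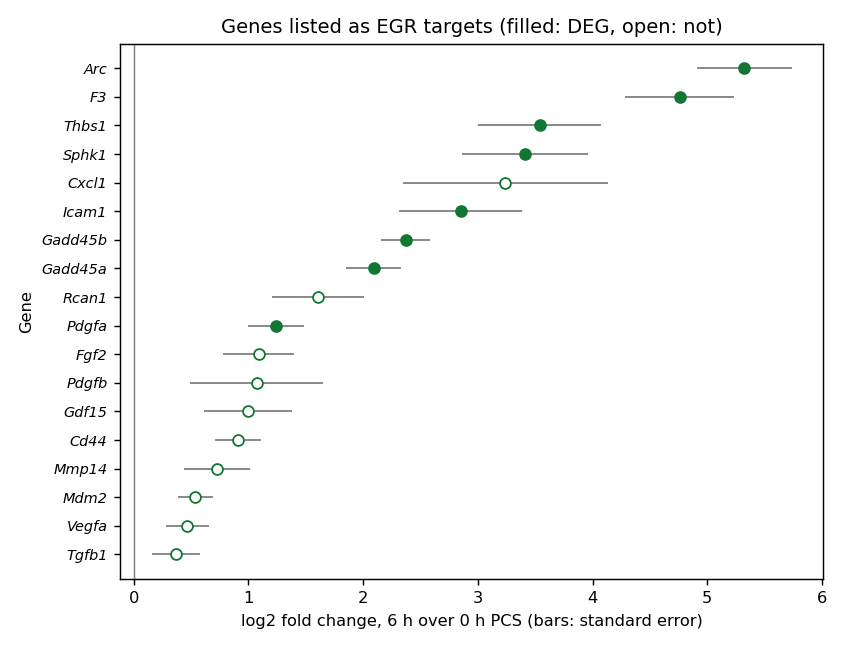
Log2 fold change at 6 h over 0 h PCS of 18 of the 22 tested genes listed as EGR targets, with the standard error as a bar, filled points for DEGs and open points for genes not called. Tnf, with no count at 0 h, and 3 other genes are not drawn, and the values run from 0.37 for Tgfb1 to 5.32 for Arc.

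Nearness of profiles over the 6 libraries was measured as the root mean square difference of log2(CPM + 1) values, each centered on the gene's own mean, among the 14740 tested genes with a mean of at least 1 CPM. For Egr1 the nearest were Ier2 (0.293), Atf3 (0.375), Zfp36 (0.380), Gm8818 (0.407) and Hcn4 (0.454). Egr3 stood at position 24 in that order, Egr2 at 76 and Nab2 at 779. Among the nearest to Egr3 were Maff (0.236), Rnd1 (0.238), Ccn1 (0.246) and Mt2 (0.254), with Egr2 at position 31. Nab2 was nearest to Arhgef2 (0.101), Slc29a2 (0.107), Esyt1 (0.111), Arap2 (0.118) and Prtg (0.138), all upregulated DEGs with log2 fold changes of 1.06 to 1.46. None of the EGR genes was near it, Egr2 being the closest of the 3 with a difference of 0.969. The difference includes the change between the time points, so genes with unlike fold changes lie far apart by construction. The distance of Nab2 from the EGR genes therefore does not show whether they vary together within a time point. These distances describe 6 libraries and carry no test.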

How the data were processed

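The authors aligned the paired 101 nt reads to GRCm38 with Hisat2 and used the union mode of HTSeq to count them over Ensembl genes. The deposited values are raw counts, and their 5 HTSeq summary rows were left out here. In edgeR 4.0.16 (R 4.3.3), all 6 libraries entered a quasi-likelihood F-test in its earlier form, as in the study's methods, with TMM scaling, edgeR's filter on low counts and robust dispersions. DEGs passed an FDR limit of 0.05 (Benjamini-Hochberg, over all tested genes) and changed by more than 2-fold. The SE is the absolute log2 fold change divided by the square root of F. Alternatives used DESeq2 1.42.0 and other edgeR settings. The fit was tested on simulated data.

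Symbols and exon lengths came from the study's supplementary gene tables, as far as read (7017 of 55421 genes named, leaning towards changed genes), and coordinates from RefSeq for GRCm38.p6. Members and lists were chosen with earlier results of these data known. Named list genes were the DEGs with the largest fold changes, at most 4 per direction, and all genes of lists of up to 6. Which pools came from the same mice is not labelled, so p-values measure the spread between pools. No sequences were used here. Some genes that the rule names are not reported here.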

Additional observations from a re-analysis of the deposited data

How the results depend on the processing

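The number of DEGs among the 5 genes was 2 in the fit described above, 4 with edgeR's exact test, with DESeq2 and without robust estimation, and 1 with library size scaling. It was 2 to 3 with 1 library left out, where 510 to 742 of the 17533 to 17748 tested genes were upregulated DEGs. For Egr1 the log2 fold change, 3.60 and not called in that fit, was called at 3.60 with the exact test, 3.62 with DESeq2 and 3.60 without robust estimation. It ran from 3.14 to 4.19 with 1 library left out (called without 0 h replicate 3). For Egr2, 2.93 and not called in that fit, it was called at 2.93 with the exact test, 2.96 with the edgeR 4 method, 2.94 with DESeq2 and 2.93 without robust estimation. It ran from 2.50 to 3.94 with 1 library left out (called without 0 h replicate 1). Nab2 fell below the fold limit with library size scaling, at 0.91. Every other alternative kept its direction and its side of the limits, including the size factors of DESeq2 and both other filters. The replicate numbers are shared by the time points. Deviations of libraries of the same number had correlations of −0.012, 0.314 and 0.165, against −0.258 to 0.0689 for pairs of different number. Whether the numbers mark a batch or a pairing is not labelled and was not tested. A replicate block left 2 DEGs among the 5, where 888 of 16810 tested genes were upregulated DEGs. Its log2 fold changes were 3.82 for Egr1, 3.18 for Egr2, 3.78 for Egr3, 0.51 for Nab1 and 1.24 for Nab2. The DEGs among all genes went from 762 upregulated and 138 downregulated to 572 and 627 with library size scaling, and from 138 downregulated to 250 with the exact test and 256 with DESeq2. Without the low-count filter there were 1044 and 257, without 0 h replicate 1 there were 510 and 43, and without 0 h replicate 3 there were 616 and 53. The counts of 22 listed targets called stayed within 1.5 times under both settings tried. Counting error limits Egr2 most, with 24 counts in its lowest library.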
